A study of Mus musculus with 3 samples.

Results

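The 4 genes described here are the Notch receptor Notch1, its ligands Jag1 and Dll4, and the coactivator Maml3. They were taken by symbol from the 3264 genes with a value in every cell, and all 4 were present. Those of the listed genes that matched the annotation lie on chromosomes 1 (1224 genes), 2 (1465) and the first part of 3 (555), so every count over the matrix is a count over these chromosomes, and other receptors and ligands, Notch2 among them, were not analysed here. The cells came from mitral valves of mice labelled B6.129-Fbn1tm2Rmz/J, which carry the mgR allele of the fibrillin 1 gene and underexpress this microfibril protein, a model of Marfan syndrome. The study's methods give males of 12 weeks. All 3 listed samples carry the mgR label, and no listed sample is a wild-type control. The study also made libraries of wild-type and rapamycin-treated mgR valves and of nuclei as well as whole cells, and which of these the matrix holds is not shown in it. The deposited matrix pools the cells under 2 runs of barcodes, of 14222 and 2161 cells, and no barcode could be traced to a mouse or a genotype, so all 16383 cells were treated as 1 sample. The comparisons below are therefore between cell groups within that sample, with intervals that cover counting error only and with no p-values.

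Notch receptors sit in the plasma membrane and are activated by ligands of the Jagged and Delta-like families on a neighbouring cell. Ligand binding exposes the receptor to cleavage by γ-secretase, and the released intracellular domain joins the DNA-binding protein RBPJ and a Mastermind-like coactivator on target genes. In the heart this pathway is known for its part in the endothelial-to-mesenchymal transition that forms the valve cushions, and NOTCH1 mutations are known in human aortic valve disease. Because signalling passes between cells, the receptor and its ligands can be read in the same or in different cell types.

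The genes lie on 2 chromosomes of the mouse genome (GRCm38, GENCODE M21 gene models). Notch1 occupies chr2:26457903-26516663 on the minus strand, Dll4 chr2:119325784-119335962 on the plus strand, Jag1 chr2:137081456-137116644 on the minus strand and Maml3 chr3:51685907-52105076 on the minus strand. Maml3 spans 419170 bases, against 58761 for Notch1, 35189 for Jag1 and 10179 for Dll4. Egfl7, the endothelial gene used to pick endothelial cells, starts 63350 bases beyond the end of Notch1 with 0 protein-coding genes between them. The RefSeq start of Notch1 lies 12841 bases inside the GENCODE gene model, since the 2 annotations place the start differently. The sequences before the RefSeq start of each gene are printed 5′ to 3′ on the gene's strand because RBPJ, the DNA-binding partner of the Notch intracellular domain, is known to bind the core TGGGAA. Bases in GENCODE exons were left out, and capitals mark a match to that core on either strand.
Notch1, before the RefSeq start, chr2:26503825-26504072, minus strand: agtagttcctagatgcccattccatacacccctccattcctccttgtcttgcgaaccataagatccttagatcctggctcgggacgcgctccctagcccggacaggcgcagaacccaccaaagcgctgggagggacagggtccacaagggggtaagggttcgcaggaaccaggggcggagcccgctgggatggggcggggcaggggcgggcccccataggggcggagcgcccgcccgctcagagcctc
Jag1, before the RefSeq start, chr2:137116645-137116770, minus strand: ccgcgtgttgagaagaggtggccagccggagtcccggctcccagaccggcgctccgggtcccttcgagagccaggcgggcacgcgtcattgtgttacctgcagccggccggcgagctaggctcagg
Dll4, before the RefSeq start, chr2:119325565-119325783, plus strand: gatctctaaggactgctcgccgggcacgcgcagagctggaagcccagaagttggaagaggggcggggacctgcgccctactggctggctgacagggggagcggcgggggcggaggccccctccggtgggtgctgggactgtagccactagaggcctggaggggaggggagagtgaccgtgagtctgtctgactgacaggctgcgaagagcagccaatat
Maml3, before the RefSeq start, chr3:52105077-52105256, minus strand: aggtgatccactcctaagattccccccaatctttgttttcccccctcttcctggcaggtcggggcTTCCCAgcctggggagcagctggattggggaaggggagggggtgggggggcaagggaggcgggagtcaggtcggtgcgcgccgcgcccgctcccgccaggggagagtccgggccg

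Among the members, Maml3 alone held the core within the 250 bases before its start, once, beginning 185 bases upstream and read on the opposite strand. The core occurred in the same window of 21.6% of 32851 RefSeq promoters (GRCm38.p6) and in 4 of the 15 pathway genes with a promoter record (Poglut2, Psen2, Rbpjl and Slc35c2). A match is a description of letters and not of a bound site.

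Cell groups were set by unique molecular identifiers (UMIs), the molecule counts of droplet sequencing, in genes other than the 4 members. Cells with Egfl7 and fewer than 2 of the fibroblast genes Prrx1, Col3a1 and Dpt formed an endothelial gate of 8966 cells, 54.7% of all. Cells with 2 or more of those genes and no Egfl7 formed a fibroblast gate of 3149 cells, and cells with Ptprc, the pan-leukocyte antigen CD45, and neither pattern formed a Ptprc group of 470 cells. A further 421 cells met both the endothelial and the fibroblast condition and 3377 met none. Markers that took no part in the gates were read as a check. The 6 other endothelial genes in the matrix summed to 25.7 UMIs per 10000 in the endothelial gate against 2.27 and 2.42 in the fibroblast and Ptprc groups. The 9 other leukocyte genes summed to 34.7 in the Ptprc group against 0.472 and 0.430 in the endothelial and fibroblast gates. The 6 other fibroblast genes summed to 22.0 in the fibroblast gate against 5.74 in the endothelial gate, and each of them was above its all-cell level in the fibroblast gate. Median depth was 5366 UMIs per cell in the endothelial gate, 6063 in the fibroblast gate and 4851 in the Ptprc group, over a range of 503 to 23127 UMIs in all cells, and 11 barcodes occurred in both runs.

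Notch1, the receptor, had its highest level in the endothelial gate. Its level was 2.65 UMIs per 10000 (95% exact Poisson interval 2.60 to 2.69, 14243 UMIs) in the endothelial gate, 0.594 (0.561 to 0.628) in the fibroblast gate and 0.556 (0.466 to 0.658) in the Ptprc group. The endothelial level was 4.46-fold that of the fibroblast gate (4.21 to 4.73) and 4.76-fold that of the Ptprc group (4.02 to 5.69), while the fibroblast and Ptprc intervals overlapped. The endothelial gate held 76.3% of all 18667 Notch1 UMIs and 55.5% of the UMIs of all genes. The pattern was the same in both barcode runs, at 2.64 and 2.69 in the endothelial gate and 0.591 and 0.620 in the fibroblast gate of the first and second run.

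To compare shares of cells at 1 depth, each cell with at least 2000 UMIs was thinned at random to 2000. A Notch1 UMI was then present in 39.2% of 8403 endothelial cells (95% exact binomial interval 38.2 to 40.3), in 11.1% of 3057 fibroblasts (10.0 to 12.3) and in 8.17% of 416 Ptprc cells (5.73 to 11.2). Before thinning the shares were 68.0%, 27.7% and 21.7%. Most positive endothelial cells, 72.9%, held 1 Notch1 UMI, and 220 cells held 3 or more. RNA released from broken cells also gives UMIs in cells that do not express a gene. Of the 6 other endothelial markers in the matrix, 5 stood in the fibroblast gate at 3.42% to 10.2% of their endothelial level and in the Ptprc group at 5.55% to 11.7%, and Procr at 21.8% and 20.5%. For Notch1 these percentages were 22.4% and 21.0%, above all 6 markers in both groups and close to Procr. How much of the Notch1 level outside the endothelial gate was released RNA was not tested.

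Jag1, a Notch ligand that is also made by many other cell types, followed Notch1 with a smaller contrast. Its level was 0.905 UMIs per 10000 (0.880 to 0.931) in the endothelial gate, 0.447 (0.418 to 0.476) in the fibroblast gate and 0.449 (0.368 to 0.541) in the Ptprc group. The endothelial gate was 2.03-fold above the fibroblast gate (1.89 to 2.18) and 2.02-fold above the Ptprc group (1.67 to 2.46), and the other 2 groups differed by less than their intervals. After thinning, 14.9% of endothelial cells held a Jag1 UMI, against 7.56% of fibroblasts and 6.73% of Ptprc cells. The fibroblast level was 49.3% of the endothelial one, above the 21.8% of the highest endothelial marker. In the second run the endothelial level was 0.802 and the fibroblast level 0.494, a ratio of 1.62 (1.32 to 2.01). The ratio in the first was 2.11 (1.96 to 2.27).

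Dll4, a ligand of arterial and sprouting endothelium, was close to the limit of detection. The whole matrix held 176 Dll4 UMIs in 146 cells, 0.891% of all cells. Of these UMIs 115 were in the endothelial gate, 27 in the fibroblast gate and 1 in the Ptprc group, which gives levels of 0.0214 (0.0177 to 0.0257), 0.0129 (0.00851 to 0.0188) and 0.00412 (0.000104 to 0.0229) UMIs per 10000. The endothelial to fibroblast ratio was 1.66 (1.08 to 2.62), and its interval held 1 in each run alone, at 1.35 (0.851 to 2.21) and 3.81 (0.983 to 32.6). The interval of the endothelial to Ptprc ratio, 0.914 to 207, held 1. The share of Dll4 UMIs in the endothelial gate, 65.3%, stood beside 55.5% of the UMIs of all genes. By barcode run, the endothelial level was 0.0180 with an interval of 0.0142 to 0.0224 among cells of the first, and 0.0356 with an interval of 0.0250 to 0.0490 among cells of the second, and these did not overlap. After thinning, 42 endothelial cells (0.50%) and 8 fibroblasts (0.262%) held a Dll4 UMI.

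Maml3, a Mastermind-like coactivator of the Notch transcription complex, had the opposite distribution. Its level was lowest in the endothelial gate at 1.93 UMIs per 10000 (1.89 to 1.96), higher in the fibroblast gate at 4.41 (4.32 to 4.50) and highest in the Ptprc group at 6.96 (6.63 to 7.30). The endothelial level was 0.436 of the fibroblast level (0.424 to 0.449) and 0.277 of the Ptprc level (0.263 to 0.292), and the Ptprc level was 1.58-fold that of the fibroblasts (1.5 to 1.66). No intervals of these groups overlapped, and the order was the same in each barcode run, at 1.88, 4.40 and 7.19 in the first and 2.10, 4.56 and 6.45 in the second. After thinning, a Maml3 UMI was found in 22.3% of endothelial cells, 43.3% of fibroblasts and 54.6% of Ptprc cells. The variance of the count per cell was also larger, relative to its mean, than that of the receptor. At the fixed depth the variance of Maml3 counts was 2.13 times their mean in endothelial cells, 2.01 times in fibroblasts and 2.66 times in Ptprc cells, whereas for Notch1 it was 1.16, 1.05 and 1.17 times. The means differed too, in the same order 0.380, 0.850 and 1.45 for Maml3 and 0.532, 0.120 and 0.0938 for Notch1. Spread at an equal mean was not tested. Single thinned cells held up to 12 Maml3 UMIs, and 22.1% of the Ptprc cells held 3 or more.

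**Figure D1:**
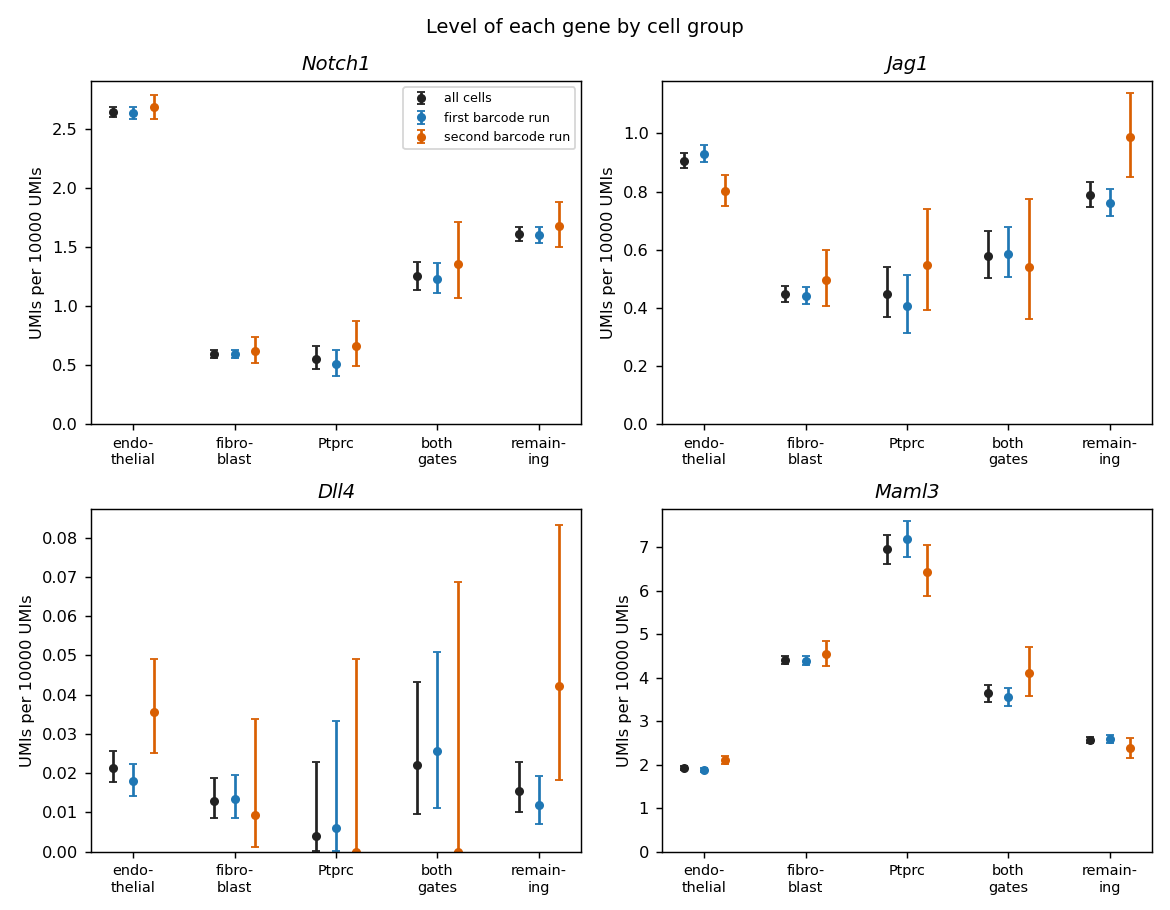
Summed UMIs of each gene per 10000 UMIs of all genes (vertical axes from 0) in the 5 cell groups, for all cells and for each barcode run. Bars are 95% exact Poisson intervals. Notch1 is highest in the endothelial gate (2.65) and Maml3 is lowest there (1.93) and highest in the Ptprc group (6.96), while the Dll4 intervals are wide.

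Read against the whole matrix, 2 of the 4 members (Notch1 and Jag1) were at least 2-fold higher in the endothelial than in the fibroblast gate, as were 14.4% of the 2375 genes with at least 100 UMIs in the pair of groups, and 1 (Maml3) was at least 2-fold lower, as were 17.1%. Against the Ptprc group the counts were again 2 higher and 1 lower, beside 18.5% and 16.5% of 2226 genes. In these counts and medians, fewer than 3 UMIs in a group were raised to a floor of 3. That floor put Dll4 under 2-fold here. On its 1 Ptprc UMI the ratio was 5.19 (0.914 to 207). Jag1 was close to the 2-fold line, and its ratio to fibroblasts was under 2 in 4 of 8 alternative settings, down to 1.62 in the second run. In that run Notch1 and Dll4 were the members above the line. Dll4 rested there on 37 endothelial and 2 fibroblast UMIs, under the minimum of 100. The median ratio of the members was 1.84 against fibroblasts, where the median over all tested genes was 0.972. Against Ptprc cells, with Dll4 at the floor, it was 1.87, where that of all tested genes was 1.03. Between fibroblasts and Ptprc cells none of the 3 members tested reached 2-fold in either direction, beside 22.4% of 2052 genes higher and 15.9% lower in fibroblasts.

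Genes that overlap the members on the other strand were checked, since the counting settings are not given in the sources used here and without strand such reads cannot be told apart. The antisense neighbours of Notch1 in the matrix, 0610009E02Rik and Gm13568, had 2069 and 14 UMIs, and 0610009E02Rik stood at 0.244 in the endothelial and 0.158 in the fibroblast gate. Gm14207, opposite Dll4, had 77 UMIs, a count of the same order as the 176 of Dll4, at 0.010 in the endothelial gate and 0.00239 in the fibroblast gate. Gm37229, opposite Maml3, had 137 UMIs. The Dll4 values are the ones to which such sharing could matter most, and its part in them was not tested.

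The endothelial gate was divided by 3 gene pairs. Prox1 or Kif26b alone marked 2715 cells, Tmem163 or Kcnh1 alone 726 and Selp or Fmo2 alone 1342, while 2605 cells had UMIs of several pairs and 1578 of none. Prox1 is a transcription factor of lymphatic and valve endothelium and Selp encodes the adhesion molecule P-selectin. Deep cells were more often in the group with several pairs, whose median was 6358 UMIs against 4656 in the group with none.

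Notch1 was present in all 3 subsets and lowest in the Selp/Fmo2 cells. Its level was 2.85 UMIs per 10000 (2.77 to 2.93) in the Prox1/Kif26b subset, 2.91 (2.76 to 3.07) in the Tmem163/Kcnh1 subset and 2.13 (2.02 to 2.24) in the Selp/Fmo2 subset. The first 2 did not differ beyond their intervals (ratio 0.978, 0.920 to 1.04), and the Prox1/Kif26b level was 1.34-fold that of the Selp/Fmo2 cells (1.26 to 1.42). In the first run the 3 levels were 2.82, 2.91 and 2.11, and in the second 2.95, 2.98 and 2.21, so the Selp/Fmo2 subset was lowest in both. Cells with several pairs stood between, at 2.53, and cells with no pair at 2.82.

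Jag1 had its lowest level in the subset where Prox1 or Kif26b was found. The levels were 0.717 (0.676 to 0.760) in Prox1/Kif26b cells, 1.09 (0.998 to 1.19) in Tmem163/Kcnh1 cells and 1.03 (0.959 to 1.11) in Selp/Fmo2 cells. The Tmem163/Kcnh1 level was 1.52-fold (1.37 to 1.69) and the Selp/Fmo2 level 1.44-fold (1.31 to 1.58) the Prox1/Kif26b level, while these higher subsets did not differ beyond their intervals (1.06-fold, 0.941 to 1.18). In the first run the order was the same, at 0.720, 1.11 and 1.05. The second run gave 0.708, 0.727 and 0.942, and its Tmem163/Kcnh1 value rests on 20 UMIs in 35 cells, with an interval of 0.444 to 1.12 that also covers the Prox1/Kif26b level. Both the receptor and this ligand had their highest pooled level in the Tmem163/Kcnh1 cells, though not beyond the intervals of the next subset. Notch1 was lowest in the Selp/Fmo2 cells and Jag1 in the Prox1/Kif26b cells.

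Dll4 had its highest level in the Prox1/Kif26b subset, the one with the least Jag1. That subset held 49 Dll4 UMIs, a level of 0.0310 (0.0229 to 0.0409), against 11 UMIs and 0.0155 (0.00775 to 0.0278) in Selp/Fmo2 cells and 3 UMIs and 0.00645 (0.00133 to 0.0189) in Tmem163/Kcnh1 cells. The ratio of the Prox1/Kif26b to the Tmem163/Kcnh1 level was 4.80 (1.55 to 24.1) and to the Selp/Fmo2 level 1.99 (1.02 to 4.25). In the first run alone they were 4.03 (1.26 to 20.5) and 1.78 (0.831 to 4.22). The ratio to the Selp/Fmo2 level in the second run was 2.69 (0.632 to 24.1), so its interval held 1 in each run. The second run, with the higher endothelial Dll4 level, gave 513 of the 2715 Prox1/Kif26b and 35 of the 726 Tmem163/Kcnh1 cells. Its part in the pooled ratios was not tested. After thinning to 2000 UMIs, the shares of cells with Dll4 were 0.512%, 0.286% and 0.403% in the Prox1/Kif26b, Tmem163/Kcnh1 and Selp/Fmo2 subsets, the last 2 from 2 and 5 cells, so a difference was not detectable at that depth. In the second run the Tmem163/Kcnh1 subset had 0 Dll4 UMIs, with an interval up to 0.134 UMIs per 10000.

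The order of the subsets by Maml3 depended on the run. Pooled levels were 2.07 (2.0 to 2.15) in Prox1/Kif26b cells, 2.04 (1.94 to 2.15) in Selp/Fmo2 cells and 1.46 (1.35 to 1.57) in Tmem163/Kcnh1 cells. In the first run the levels in that order were 2.19, 1.88 and 1.40. In the second they were 1.73, 2.75 and 2.29, so the Prox1/Kif26b subset was highest in the first run and lowest in the second. The highest subset was 1.56-fold the lowest in the first run (1.43 to 1.70) and 1.59-fold in the second (1.39 to 1.81), against 1.42-fold when the runs were pooled. No label says what the runs are, and the part of the animals, the libraries or the genotype in this change cannot be told apart.

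**Figure D2:**
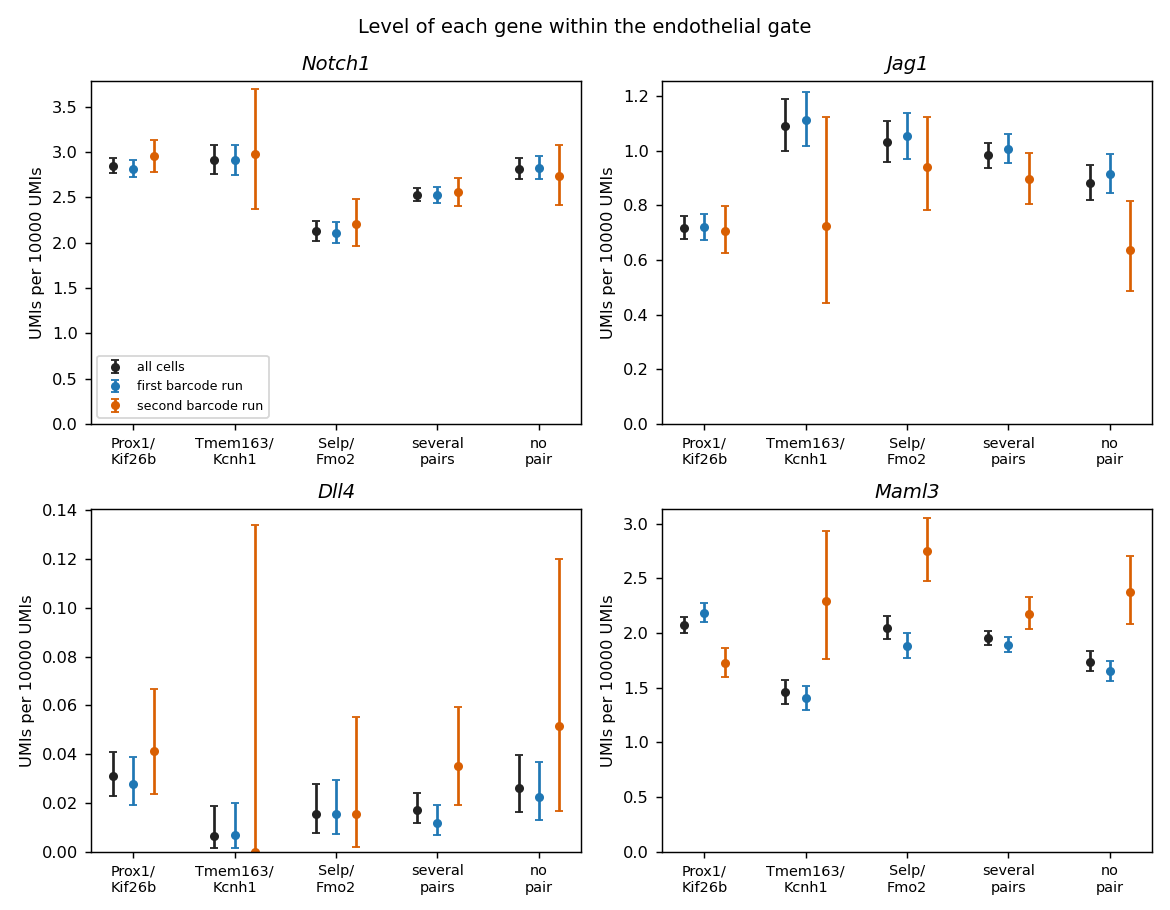
Summed UMIs of each gene per 10000 UMIs of all genes (vertical axes from 0) in the 3 subsets of the endothelial gate and in endothelial cells with several gene pairs or none, for all cells and for each barcode run. Bars are 95% exact Poisson intervals. Notch1 is lowest in Selp/Fmo2 cells in both runs (2.11 and 2.21), and the Maml3 order differs between the runs.

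Between the highest and the lowest subset, 2 of the 4 members (Jag1 and Dll4) differed by at least 1.5-fold, as did 37.6% of 2154 tested genes. The ratio was 1.37 for Notch1 and 1.42 for Maml3, beside a median of 1.36 over all tested genes. The count of members is therefore near the background. It was 3 of 4 in the first run, with Maml3 added, and in the second run the 2 were Dll4 and Maml3. Dll4 had 16, 0 and 2 UMIs in the Prox1/Kif26b, Tmem163/Kcnh1 and Selp/Fmo2 subsets of the second run. Its call there was set by raising fewer than 3 UMIs to 3 and says nothing of their order. The count was 0 of 4 when shares of thinned cells were used in place of levels, and 4 of 4 when Leiden clusters replaced the gates. The 0 depends on raising fewer than 3 positive cells to 3, which applied to the 2 Tmem163/Kcnh1 cells with Dll4. Without that floor Dll4 passed the line on shares. The share over all genes was computed only for the pooled levels of the gates. The counts by run, thinned share and cluster have no such background beside them.

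The pooled level of Notch1 was higher in cells with more Egfl7 UMIs. Over the endothelial gate and the cells that met no gate, it was 1.61 (1.55 to 1.67) where no Egfl7 UMI was found, 2.33 (2.24 to 2.43) with 1 UMI, 2.60 (2.52 to 2.68) with 2 to 3 and 2.80 (2.73 to 2.86) with 4 or more. Median depth increased alongside, from 4335 to 5965 UMIs. Jag1 showed no such ordering, with 0.789, 0.957, 0.949 and 0.861 over the same 4 steps. Maml3 was highest, at 2.57, in the cells with no Egfl7 UMI and went from 1.69 with 1 UMI to 2.07 with 4 or more. The cells with no Egfl7 hold other types besides: their fibroblast markers summed to 13.7 and their endothelial markers to 10.8 UMIs per 10000. In endothelial cells thinned to 1 depth, Egfl7 was found 1.03 times as often with Notch1 as without it. By subset, Egfl7 was 4.56 in Tmem163/Kcnh1 cells, its lowest level, and 8.69 in Prox1/Kif26b cells. The Notch1 levels of these subsets did not differ beyond their intervals. Among the Leiden clusters, the Prox1/Kif26b cluster had the highest level of both Notch1 (2.95) and Egfl7 (9.10).

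**Figure D3:**
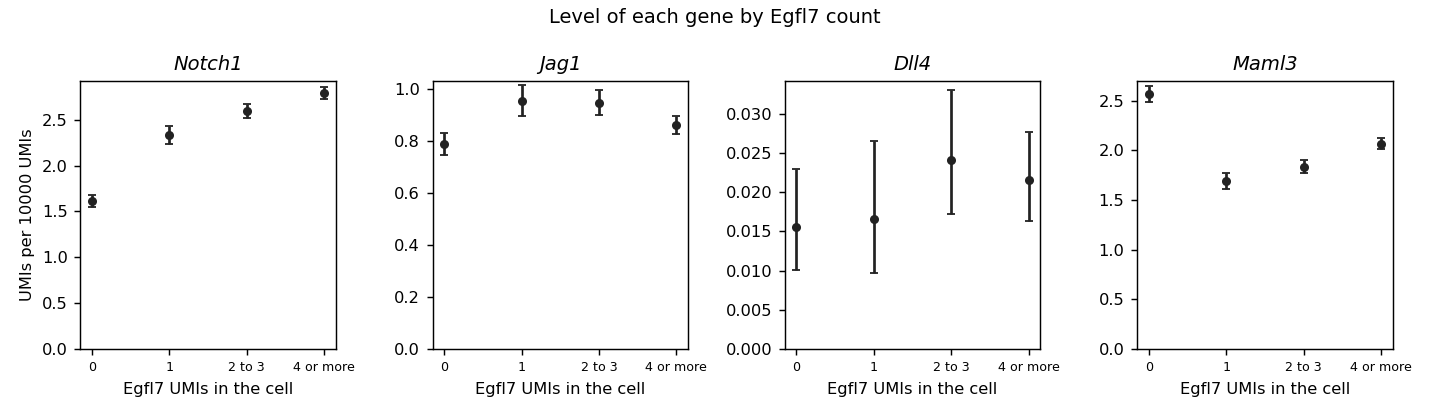
Summed UMIs of each gene per 10000 UMIs of all genes (vertical axes from 0) in cells with 0, 1, 2 to 3 and 4 or more Egfl7 UMIs, over the endothelial gate and the cells that met no gate. Bars are 95% exact Poisson intervals. Notch1 goes from 1.61 to 2.80 over the 4 steps, and Jag1 and Maml3 show no steady increase.

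Cells that carry the receptor and a ligand together were then counted in the endothelial gate after thinning, because depth alone brings the 2 genes together. Jag1 was found in 524 of 3295 cells with a Notch1 UMI (15.9%, exact binomial interval 14.7 to 17.2) and in 727 of 5108 cells without one (14.2%, 13.3 to 15.2). The difference was 1.67 percentage points (95% Newcombe interval 0.111 to 3.26), a ratio of 1.12. Among 1762 genes found in at least 100 of these cells, Jag1 ranked 209th by this ratio, the median ratio was 0.995 and 4.48% of genes reached 1.2. Of all endothelial cells, 6.24% held both genes, 33.0% Notch1 without Jag1 and 8.65% Jag1 without Notch1. Without thinning, where deep cells hold more of both genes, the difference was 11.6 percentage points.

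The difference was uneven over the gate. It was -0.0144 percentage points (-2.54 to 2.58) in Prox1/Kif26b cells, 1.14 (-3.14 to 5.79) in Selp/Fmo2 cells, 5.22 (-0.454 to 11) in Tmem163/Kcnh1 cells and -0.324 (-3.23 to 2.70) in cells with several pairs. Only in cells with no pair did its interval lie above 0 among these 5 groups, with Jag1 in 19.7% of 552 cells with Notch1 and 11.7% of 820 without, a difference of 8.04 points (4.12 to 12.1). Those cells also had the highest sum of leukocyte markers among the 5 groups, 1.66 against 0.376 to 0.659 UMIs per 10000 elsewhere, and the part of mixed cell types in the difference was not tested. In the first run the difference over the gate was 1.98 points (0.268 to 3.73) and in the second 0.272 (-3.46 to 4.13). In fibroblasts it was -0.229 (-2.78 to 3.18).

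For Dll4 no difference was detectable at this depth. Dll4 was found in 16 of 3295 endothelial cells with Notch1 (0.486%) and in 26 of 5108 without (0.509%), a difference of -0.0234 percentage points (-0.324 to 0.319). The interval held 0 in each of the 5 groups of the endothelial gate and in each run, at 0.115 (-0.211 to 0.503) in the first and -0.772 (-1.78 to 0.180) in the second. In fibroblasts the share was 4 of 340 with Notch1 and 4 of 2717 without, a difference of 1.03 points (0.275 to 2.84) that rests on 8 cells. Without thinning, 97 endothelial cells held Dll4, of which 70 also held Notch1, 31 Jag1 and 25 both. Jag1 and Dll4 were found together in 5 thinned endothelial cells, and Dll4 was in 0.400% of cells with Jag1 and 0.517% without, a difference of -0.118 points (-0.418 to 0.433). Maml3 was in 21.5% of endothelial cells with Notch1 and 22.8% without, a difference of -1.24 points (-3.04 to 0.588).

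**Figure D4:**
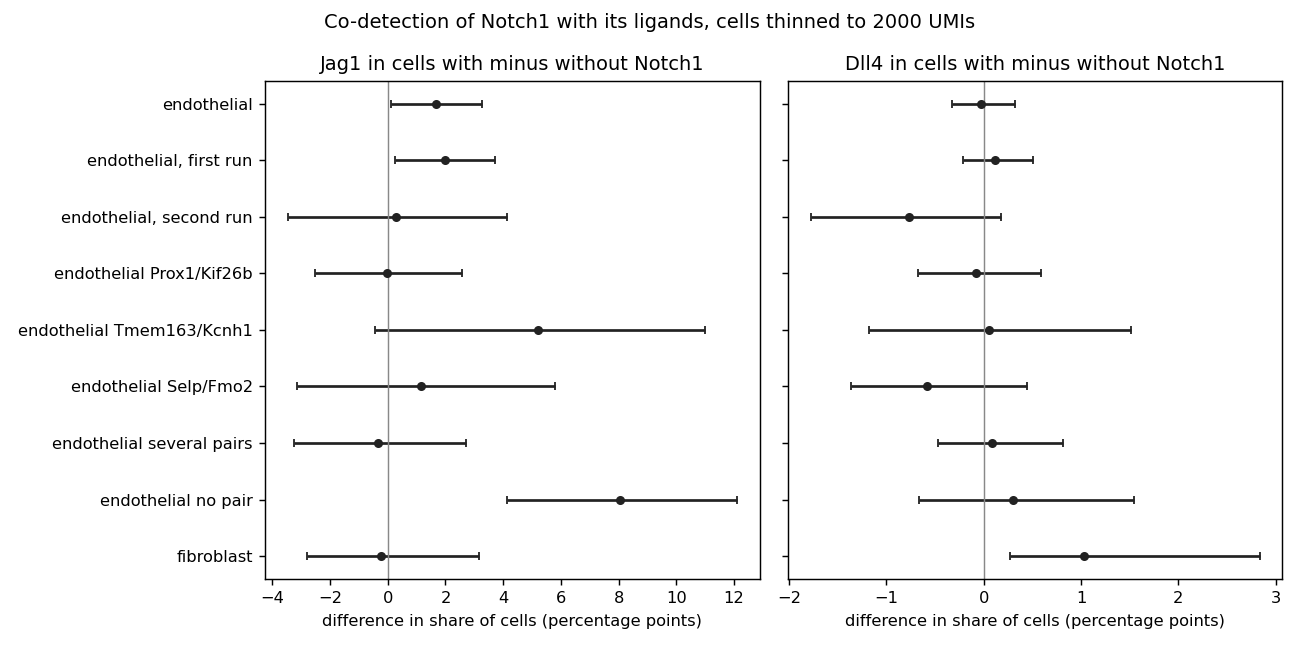
Share of thinned cells with Jag1 (left) or Dll4 (right) among cells with a Notch1 UMI minus that among cells without one, in percentage points, by barcode run and cell group. Bars are 95% Newcombe intervals. For Jag1 the interval lies above 0 over the whole gate, in the first run and in cells with no gene pair, and for Dll4 it holds 0 in every endothelial group drawn.

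Of 20 symbols listed for other Notch pathway genes, with Poglut2 and Kdelc1 both among them for the same gene, 17 were in the matrix. Of these genes 14 had at least 100 UMIs in the endothelial and fibroblast gates together. Compared with fibroblasts, 4 of the 14 were at least 2-fold higher in the endothelial gate and 0 at least 2-fold lower, beside 14.4% and 17.1% of all tested genes, with a median ratio of 1.06. Compared with Ptprc cells, 2 of 14 were higher and 3 lower, beside 18.5% and 16.5%, with a median of 0.878. Between fibroblasts and Ptprc cells, 1 of 12 was higher in fibroblasts and 5 lower, beside 22.4% and 15.9%, with a median of 0.646 where that of all tested genes was 1.03.

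The highest endothelial to fibroblast ratio among the 14 tested pathway genes was that of Nrarp, a Notch target whose product limits Notch signalling. It had 573 UMIs in the endothelial gate, 9 in the fibroblast gate and 2 in the Ptprc group, or 0.107, 0.00430 and 0.00823 UMIs per 10000. The ratio was 24.7 (12.9 to 54.4) against fibroblasts and 12.9 (3.57 to 107) against Ptprc cells. The second run held 249 of the 573 endothelial UMIs, a level of 0.239 against 0.0747 in the first, and the ratio to fibroblasts was 17.5 (8.78 to 40.9) with first-run cells and 51.3 (9.13 to 2035) with second-run cells, the latter against 1 fibroblast UMI. Within the gate its pooled level was highest in Selp/Fmo2 cells at 0.172, against 0.10 in Prox1/Kif26b and 0.0452 in Tmem163/Kcnh1 cells. With the runs pooled, the subset with the least Notch1 thus had the most Nrarp. The second run gave 184 of 1342 Selp/Fmo2, 513 of 2715 Prox1/Kif26b and 35 of 726 Tmem163/Kcnh1 cells, and its part in this order was not tested. Hey1, a Notch target that encodes a transcriptional repressor of the Hes family, stood at 0.0563 in the endothelial gate and 0.0617 in the fibroblast gate, a ratio of 0.913 (0.741 to 1.13). Split by barcode run, that ratio was 1.06 (0.831 to 1.35) for the first and 0.425 (0.275 to 0.670) for the second. Against the Ptprc group, with 1 Hey1 UMI, it was 13.7 (2.44 to 542). Hes6, a relative that is not a classical target, had a ratio of 1.55 (1.21 to 2.02) against fibroblasts. In thinned endothelial cells Nrarp was found 1.03 times as often with Notch1 as without it.

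The γ-secretase subunits that cleave the receptor were not alike. Psen2, a catalytic presenilin, was 3.03-fold higher in the endothelial than in the fibroblast gate (2.70 to 3.40), 2.79-fold in the first run and 4.96-fold in the second, at 0.498 against 0.165, and its highest subset was Prox1/Kif26b at 0.622 against 0.258 in Tmem163/Kcnh1 cells. Aph1a and Ncstn, the scaffold subunit and nicastrin, were 1.74-fold (1.48 to 2.05) and 1.2-fold (1.11 to 1.31) higher than in fibroblasts. Against the Ptprc group the endothelial ratio of Psen2 was 1.34 (1.09 to 1.68). For Aph1a it was 1.06 (0.757 to 1.54) and for Ncstn 0.818 (0.687 to 0.982). The genes that glycosylate or supply sugar for the receptor leaned the other way without reaching 2-fold against fibroblasts: Pofut1, the protein O-fucosyltransferase, had a ratio of 0.767 (0.706 to 0.834), Slc35c2, a solute carrier tied to Notch fucosylation, 0.742 (0.647 to 0.851), and Poglut2, a protein O-glucosyltransferase, 0.900 (0.806 to 1.01).

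Among the genes that limit or turn over Notch, Fbxw7, the ubiquitin ligase subunit that marks the intracellular domain for degradation, stood at 1.96 in the endothelial gate and 0.966 in the fibroblast gate, a ratio of 2.02 (1.93 to 2.12). Between the endothelial gate and the Ptprc group Fbxw7 did not reach 2-fold in either direction. It was at least 2-fold lower in fibroblasts than in Ptprc cells. Itch, a ubiquitin ligase of the receptor, had a ratio to fibroblasts of 0.867 (0.840 to 0.895), and Cir1, a corepressor partner of RBPJ, 0.776 (0.726 to 0.829). Neurl3, of the Neuralized family, was 3.14-fold above fibroblasts (2.21 to 4.60), with 5.22-fold in the second run from 3 fibroblast UMIs, but its Ptprc level of 1.15 was far above the endothelial 0.0526, a ratio of 0.0458 (0.0387 to 0.0542). Bend6, a corepressor of RBPJ, was also highest in the Ptprc group, at 0.568 against 0.0712 in the endothelial gate. Dner, a noncanonical ligand, Rbpjl, an RBPJ relative, and Neurl2 had 22, 5 and 73 UMIs in the endothelial gate and were not carried further. Among the 3 endothelial subsets, 6 of the 14 tested genes differed by at least 1.5-fold (Psen2, Bend6, Neurl3, Nrarp, Hey1 and Hes6), beside 37.6% of all tested genes, with a median ratio of 1.33 where that of all tested genes was 1.36.

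**Figure D5:**
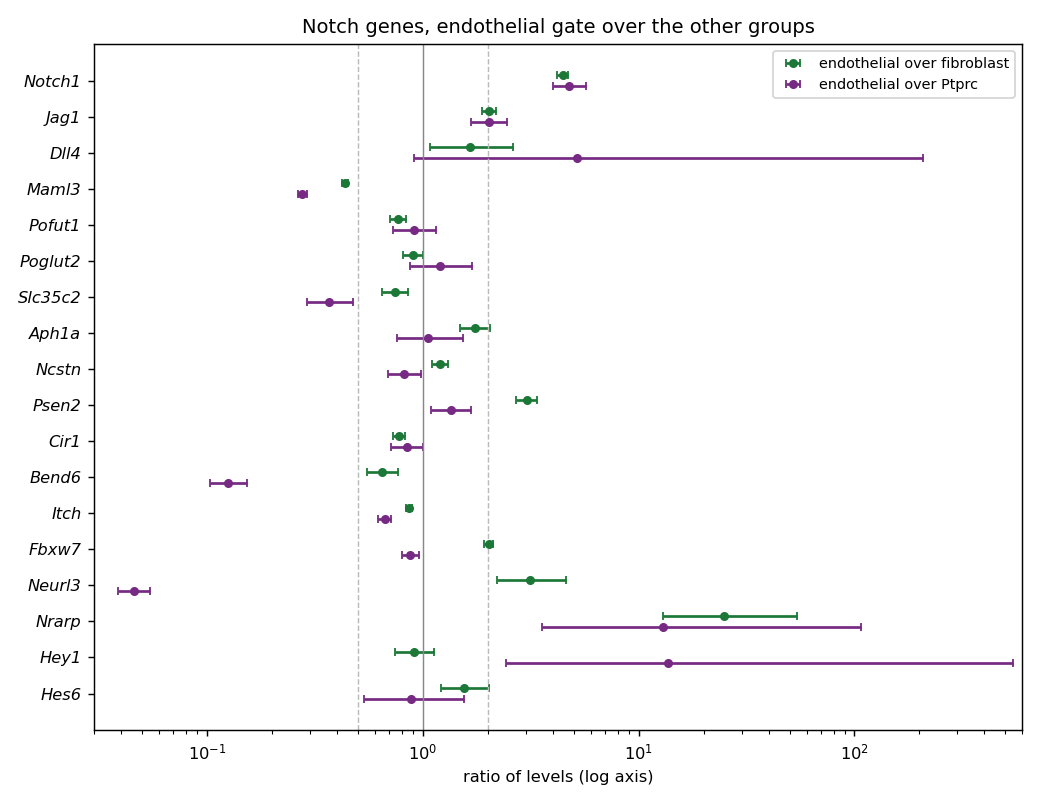
Ratio of the level in the endothelial gate to that in the fibroblast gate (green) and in the Ptprc group (purple), on a log axis, for the 4 members (top) and the 14 pathway genes. Bars are 95% exact intervals and dashed lines mark 2-fold. Nrarp lies farthest to the right against fibroblasts (24.7), and Maml3 lies left of 0.5 in both comparisons (0.436 and 0.277).

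The genes with the most similar distribution were ranked by Pearson's r of log2(level + 0.01) over 7 groups of cells from the same matrix, among 2504 genes. For Notch1 they were Id1 (r = 0.998), Shf (0.993) and Hdgf (0.992). Id1, an inhibitor of helix-loop-helix transcription factors, stood at 1.53 in the endothelial gate and 0.169 in the fibroblast gate. For Jag1 they were Cenpb (0.986), Calcrl (0.983) and Ppdpf (0.981), and Calcrl, the receptor of adrenomedullin and calcitonin gene-related peptide, stood at 11.7 and 0.889. For Maml3 they were Abl1 (0.995), Ifi211 (0.991) and Rnpep (0.990). For Dll4 they were Per2 (0.987), Ptgs2 (0.978) and Ptpmt1 (0.962), on few Dll4 UMIs. Among the members, Notch1 had an r of 0.908 with Jag1 and -0.959 with Maml3. The 7 points share the library and the gates, so these values are descriptions.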

How the data were processed

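Droplet libraries (10x Genomics 3′ v3 chemistry per the labels) were made from mitral valves. Per the labels the authors used Cell Ranger 7.1.0 and Seurat 4.3.0 on the mm10 build. The authors deposited 1 matrix of natural log values, ln(1 + 10000 × UMIs / cell total). In each cell the smallest step is 1 UMI, and UMIs and totals were recovered from it, with 100% of values whole within 0.02 UMIs. A gene with 11958 empty values was left out, and the listed genes held 15.7% of the UMIs of the median cell. The members, gene lists, gates and thresholds were chosen with earlier results of these data known. Named genes were the members, the pathway list and the 3 genes most like each member. A level is summed UMIs per 10000. Intervals at 95% were exact Poisson for levels, exact conditional for ratios, exact binomial for shares and Newcombe for differences of shares, and they cover counting error only. A gene was compared between groups if it had at least 100 UMIs in them, at least 2-fold being counted. Subset ratios of 1.5 and co-detection ratios of 1.2 were counted. For counts and medians over the matrix, and for counted subset ratios, fewer than 3 UMIs (or 3 cells for shares) in a group were raised to 3. Cells of 1 pooled matrix are not replicates, so no test was run. Doublets were not removed. The 421 cells that met both gates were kept apart. The procedure was tested on simulated cells. Genomic positions came from GENCODE M21 and upstream sequences from the RefSeq table (GRCm38.p6), which gives 250 bases before the start. Of the listed genes 3244 matched GENCODE by symbol. Python 3.11.15, scipy 1.17.1 and scanpy 1.11.5 were used.

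Alternatives were a higher Egfl7 minimum, gates on thinned cells, Leiden clusters without the Notch genes, other depths, each barcode run alone and fewer mixed or deep cells.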

Additional observations from a re-analysis of the deposited data

How the results depend on the processing

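Over the alternatives tried, 34 of 39 values of the 4 summary results moved by less than their interval or by no more than 1.5 times. The number of members highest in the endothelial gate was 3 of 4 under each one. That count includes Dll4, whose reported interval against the Ptprc group held 1. The share of all genes that were highest in this gate was not computed. The number that differed by at least 1.5-fold among endothelial subsets, 2 as reported, was 1 without the deepest 5 percent of cells, 0 with shares of thinned cells, 4 with Leiden clusters and 3 in the first run, with both genes of a pair required and without mixed endothelial cells. Where it was 2 with the higher Egfl7 minimum, with gates on thinned cells and in the second run, the members were Dll4 and Maml3. In the second run the Dll4 call was set by subsets with fewer than 3 Dll4 UMIs, which were raised to 3. The 0 with shares depends on the same floor. The share of all genes passing the line was computed only for the reported gates and levels. The Notch1 with Jag1 difference was 11.6 percentage points without thinning, which leaves depth in, and 0.272 to 1.98 otherwise. Of the 8 thinned alternatives that changed the cells or the depth, its interval held 0 in 6 and lay above 0 in 2. A minimum of 2000 UMIs gave the reported value, since thinning already requires it. The Notch1 with Dll4 difference was -0.772 in the second barcode run alone, and its interval held 0 under all 10. The cause of these shifts was not tested. The endothelial to fibroblast ratio kept its direction for all 4 members, at 4.23 to 4.93 for Notch1, 1.62 to 2.21 for Jag1, 1.35 to 3.81 for Dll4 and 0.405 to 0.498 for Maml3, but for Dll4 its interval held 1 in 4 of 8 alternatives. With Leiden clusters the Tmem163/Kcnh1 subset held 5135 cells in place of 726. No paired analysis was possible because the matrix is 1 pooled sample.

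The values are limited by depth and by pooling. Dll4 rests on 176 UMIs, so its subset and co-detection values carry wide intervals. No spread between animals is known.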

Other observations

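The cells outside the 3 groups were also read for the members. In the 421 cells that met both the endothelial and the fibroblast condition, Notch1 stood at 1.25 UMIs per 10000 (1.14 to 1.37) and Maml3 at 3.64 (3.45 to 3.84), between the endothelial and fibroblast levels of each gene. Jag1 was at 0.580 (0.504 to 0.663), also between its endothelial and fibroblast levels. The median depth of these cells was 8709 UMIs. In the 3377 cells that met no gate, Notch1 was at 1.61 and Jag1 at 0.789.

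Among all 11 Leiden clusters, Notch1 ranged from 0.437 to 2.95 UMIs per 10000 in those of more than 50 cells, the highest being the cluster with the most Prox1 and Kif26b. Its Dll4 level of 0.0378 was the highest among the clusters of the endothelial group, and its Jag1 level of 0.691 the lowest.

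The gene found most often with Notch1 in thinned endothelial cells, relative to cells without it, was Duox2 (173 cells, ratio 1.72), followed by Nppc (169 cells, 1.53), the gene of C-type natriuretic peptide. They were chosen after their values were seen. Ptprc had a ratio of 0.435, ranking 1761 of 1762, and Fmo2 0.754.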
